A study of Mus musculus with 2 samples.

Results

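The ribosome biogenesis genes of mouse induced macrophages were described in 1 library of single cells. The set held 58 of the 20034 genes in the count matrix. Its members were chosen by symbol. The rule took symbols made of Nop, Utp, Rrp or Exosc and a digit, and symbols starting with Polr1. It added 17 named factors such as Ncl, Npm1, Fbl and Dkc1. The rule uses no measured value, but it was set with earlier results of these data known. The cells are macrophage-like cells that, by the series title, were turned from fibroblasts by c-Myc without further factors. The labels call both listed libraries, a cDNA library and an oligo library, wild type induced macrophage. They give no age, time point or vector, and all cells share the c-Myc induction. The barcodes carry no library name, so the 6751 cells kept were treated as 1 sample with no replicate and no control cells. No test across samples was therefore possible. The intervals given are 95% intervals that cover counting error only.

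Ribosomes are assembled in the nucleolus, where RNA polymerase I transcribes a long precursor ribosomal RNA. Small nucleolar RNA-protein particles (snoRNPs) guide its chemical modification, the small-subunit processome folds and cleaves it, and further factors and the RNA exosome mature the large subunit and trim RNA ends. The transcription factor Myc is known to raise the genes of this pathway in growing cells, partly through E-box sites such as CACGTG in their promoters. Ribosome production is generally higher in growing and dividing cells than in resting ones, and most resident tissue macrophages divide rarely.

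The kept cells had from 1001 to 192369 counts each, with a median of 17178. Macrophage markers were present, with 10 of 10 at 10 counts per 1000000 counts (CPM) or more and a summed level of 12410 CPM. Of 10 fibroblast markers, 3 had a row, 0 reached 10 CPM, and their summed level was 0.836 CPM. Levels below are CPM of counts summed over cells, that is, shares of all RNA counted; the amount of RNA per cell was not measured.

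Nearly all members passed this level. Of the 58 members, 57 reached 10 CPM (98.3%), against 33.2% of all genes. At 50 CPM or more there were 34 members, and at 100 CPM or more 20. Their median level was 56.7 CPM, against 30.9 CPM for the 6656 genes at 10 CPM or more. Together the members held 9269 CPM, or 0.927% of all counts, and Ncl and Npm1 gave 40.6% of these. The members' share of a cell's counts was 0.882% in the median cell, 0.462% at the 10th percentile and 1.31% at the 90th. A median of 32 members had a count in a cell, and 0 cells had none.

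**Figure D1:**
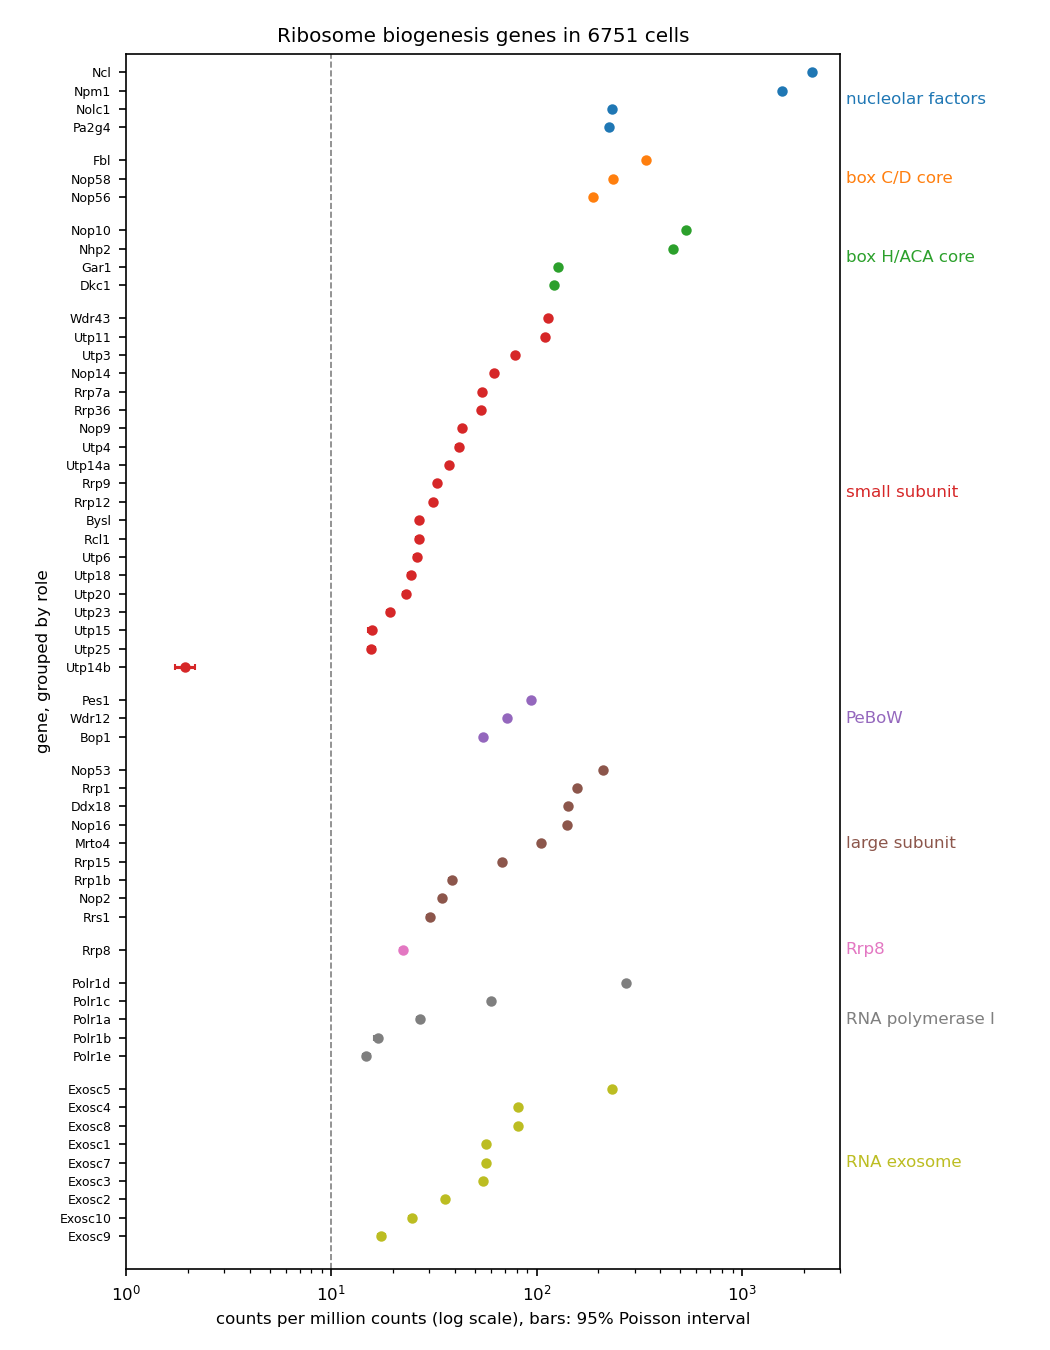
Level of each of the 58 members in CPM on a log axis, grouped by role, over 6751 cells; points are the summed level and bars the 95% Poisson interval, and the dashed line marks 10 CPM. Ncl at 2203 and Npm1 at 1563 CPM lie farthest right, and Utp14b at 1.94 CPM is the single member left of the line.

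The nucleolar factors stood highest. Ncl encodes nucleolin, which binds precursor ribosomal RNA and rDNA chromatin, and was at 2203 CPM (interval 2195 to 2210); 97.9% of cells (97.5% to 98.2%) had a count. Npm1 encodes nucleophosmin, a nucleolar chaperone, and was at 1563 CPM (1557 to 1569), with counts in 97.3% of cells (96.8% to 97.6%). In GRCm38, Ncl lies at chr1:86344719-86359400 and Npm1 at chr11:33152287-33163206, both on the minus strand. Nolc1, a chaperone of snoRNPs, and Pa2g4, a growth-regulated protein that binds ribosomes, were close to each other at 234 and 226 CPM. Shares of cells with a count rise with sequencing depth, and no cell type without these genes was in the library to give a background.

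Both kinds of snoRNP core were detected in full. The box C/D particle, which places 2'-O-methyl groups, had its methyltransferase Fbl at 340 CPM and its scaffolds Nop58 and Nop56 at 234 and 188 CPM. The box H/ACA particle makes pseudouridine. Its small subunits Nop10 and Nhp2 were at 533 and 459 CPM, whereas Gar1 was at 128 CPM and the pseudouridine synthase Dkc1 at 121 CPM. The order of these levels changed when they were divided by coding length. Whether counts in this library rise with coding length was not tested. If they do not, the division raises short genes such as Nop10 (192 coding bases). Per kilobase of coding sequence, Nop10 came first of all members at 2774 CPM, ahead of Npm1 at 1785 and Ncl at 1038, and Dkc1 was at 79.2. All further comparisons of level between genes are per coding kilobase where stated, and the ranks on the 2 scales were close (Spearman 0.93 across the 58 members, a description with no p).

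Factors of the small-subunit processome and 40S maturation were lower. Of 20 genes with a row, 19 reached 10 CPM, and the median was 32.1 CPM. Wdr43, which belongs to the subcomplex that first binds the precursor RNA, was at 113 CPM, Utp11 at 110 CPM and Utp3 at 78.2 CPM. Utp20, a very large scaffold protein, was at 23.1 CPM and was the lowest per coding kilobase of the members past 10 CPM, at 2.76. Utp14b, a retrogene copy of Utp14a, was at 1.94 CPM (1.73 to 2.17), detected in 4.03% of cells (3.57% to 4.53%), against 37.6 CPM for Utp14a. Exons of Utp14b overlap those of Acsl3 on the same strand, so its few counts are uncertain.

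The large-subunit factors were higher in the median. Pes1, Wdr12 and Bop1 form the PeBoW complex, which is needed to process the RNA of the 60S subunit, and were at 94.2, 71.6 and 55.0 CPM. The 9 other 60S factors had a median of 105 CPM. The highest was Nop53, which links the pre-60S particle to the exosome, at 211 CPM, followed by Rrp1 at 157 and the helicase Ddx18 at 142 CPM. The lowest was Rrs1, which helps bring in the 5S RNA, at 30.1 CPM. Rrp8, a methyltransferase linked to rDNA silencing, was at 22.4 CPM.

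The 5 RNA polymerase I subunits were spread widely. Polr1d and Polr1c, which RNA polymerase III also uses, were at 273 and 59.9 CPM. The catalytic subunits Polr1a and Polr1b were at 27.0 and 16.8 CPM, and Polr1e, a polymerase I-specific subunit, at 14.8 CPM. Per coding kilobase the gap was wider, with Polr1d at 685 and Polr1a at 5.24. In the RNA exosome, which trims and degrades RNA from the 3' end, Exosc5 was at 234 CPM, Exosc4 and Exosc8 both at 81.0 CPM, and Exosc9 lowest at 17.5 CPM. The nuclease Exosc10 was at 24.7 CPM. The remaining polymerase I subunits had rows under older symbols that the naming rule does not take in. Polr1g was at 68.2 CPM as Cd3eap, Polr1f at 53.8 CPM as Twistnb and Polr1h at 37.8 CPM as Znrd1. Rrp5, a factor of both subunits, was at 53.9 CPM as Pdcd11, and Exosc6 had no row.

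Some members share their locus with other transcripts. Exons of 18 members overlap those of another protein-coding gene, 17 on the opposite strand. Exosc9 thus overlaps the cyclin gene Ccna2, Bysl Ccnd3, Nop56 Idh3b, Rrp1b Hsf2bp, Dkc1 Mpp1, Exosc8 Supt20, Exosc5 Tmem91 and Nhp2 Rmnd5b. Whether the counting used the strand is not given in the sources used here, so reads of such pairs may not be told apart. Small nucleolar RNA genes lie inside 6 members, Ncl, Nop58, Nop56, Wdr43, Nop53 and Dkc1, for example Snord70 in Nop58 and Snord57 in Nop56.

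A further list of 100 ribosome biogenesis genes outside the naming rule was lower in the median. Of its 98 genes with a row, 89 reached 10 CPM, and the median over the list was 40.3 CPM. Snu13, a protein shared by snoRNPs and the spliceosome, was highest at 330 CPM. Taf1a, a subunit of the polymerase I initiation factor SL1, was lowest at 2.71 CPM.

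Promoter sequence was looked at because the cells were made with c-Myc, whose E-box is CACGTG. RefSeq promoters (GRCm38.p6, from 250 bases before to 50 after the start) were matched by symbol to 47 of the 58 members. A gene with several starts counted if any of its windows held the motif. CACGTG, which reads the same on both strands, was in 10 of these 47 (21.3%), against 13% of the 5375 genes at 10 CPM or more with a promoter and 8.09% of all 27025 genes with one. CACGCG, searched on both strands, was in 14 of the 47 (29.8%), against 21.4% and 10.5%. The motifs cannot match the same 6 bases, and 3 members, Pes1, Rrp7a and Utp14b, held both. Utp14b lies below 10 CPM, unlike the 5375 genes. Among members at 10 CPM or more with a promoter, 9 held CACGTG and 37 did not. These are matches of letters, and binding of Myc was not measured. The promoters of Wdr43 and Nop58 are printed because both genes were among the members that differed most with cell cycle genes, and that of Polr1d because it did not. Each runs 5' to 3' on the gene's strand, and capitals mark CACGTG. The positions are chr17:71615965-71616264, chr1:59684756-59685055 and chr5:147077096-147077395, all on the plus strand.
Wdr43: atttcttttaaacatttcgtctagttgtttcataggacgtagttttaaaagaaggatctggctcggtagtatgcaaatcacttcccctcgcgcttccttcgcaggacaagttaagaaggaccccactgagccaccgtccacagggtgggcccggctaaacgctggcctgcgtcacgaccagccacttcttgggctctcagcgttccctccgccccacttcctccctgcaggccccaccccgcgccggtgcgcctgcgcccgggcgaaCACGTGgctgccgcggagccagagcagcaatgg
Nop58: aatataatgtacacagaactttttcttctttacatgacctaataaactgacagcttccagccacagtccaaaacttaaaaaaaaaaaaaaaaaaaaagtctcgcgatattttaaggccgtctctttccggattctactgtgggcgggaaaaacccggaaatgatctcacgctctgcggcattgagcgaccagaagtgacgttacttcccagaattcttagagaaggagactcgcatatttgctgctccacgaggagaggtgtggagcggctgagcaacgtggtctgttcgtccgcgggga
Polr1d: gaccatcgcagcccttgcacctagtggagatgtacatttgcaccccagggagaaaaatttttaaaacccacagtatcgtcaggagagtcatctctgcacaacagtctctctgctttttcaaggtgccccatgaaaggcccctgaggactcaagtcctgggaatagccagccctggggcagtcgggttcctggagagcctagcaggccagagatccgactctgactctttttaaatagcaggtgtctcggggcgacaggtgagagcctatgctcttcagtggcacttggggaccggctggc
Counting the start as base 1, Wdr43 held CACGTG from base 18, whereas the letters were not in the windows of Nop58 and Polr1d.

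Further stretches of 30 bases show the setting of CACGTG in other members, again with the motif in capitals. Utp20, Utp18 and Utp25 were the members after Wdr43 with the motif that had the highest ratios by cell cycle genes, and Pes1 and Rrp7a had the lowest. They lie at chr10:88826765-88826794 (minus strand), chr11:93885769-93885798 (minus), chr1:193130221-193130250 (minus), chr11:3963965-3963994 (plus) and chr15:83122992-83123021 (minus).
Utp20: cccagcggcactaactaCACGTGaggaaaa
Utp18: gcgagcgccggtCACGTGgcttgcggcggc
Utp25: tccgccgtaaagccagcgtgccCACGTGcg
Pes1: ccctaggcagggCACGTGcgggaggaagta
Rrp7a: gtgcctgtgcacCACGTGtcctggaactgg
The motif began at base 38 in Utp20, 20 bases before the start in Utp18 and 208 before it in Rrp7a. It thus had no fixed distance from the start.

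To ask how the members followed the cell cycle, cells were ranked by counts of 40 S, G2 and M phase genes, none of them a member. Each cell was first thinned to 5000 counts, which kept 5207 cells and left out 1544 shallower cells. The top 25% (1301 cells, 16 counts of these genes or more) were compared with the bottom 25% (1302 cells, 7 or fewer), using all counts of those cells. Differences are log2 ratios of CPM with 1 CPM added, and a gene was called higher or lower at 1.5-fold or more.

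Ribosome biogenesis genes were higher in cells rich in cell cycle RNA. The call was made for 33 of 57 members (57.9%), against 23.7% of the 6656 genes. No member was called lower, against 1.97% of all genes. The members' median log2 ratio was 0.62, against 0.27 over all genes, and 55 of 57 lay above 0, against 74.5% of all genes. Their summed level went from 7034 CPM in the bottom group through 8945 and 9767 in the groups between to 10501 CPM in the top group. Without Ncl and Npm1 the 4 sums were 4293, 5490, 5808 and 6023 CPM. The list of other biogenesis genes had a median of 0.62 as well, with 50 of 89 called higher.

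**Figure D2:**
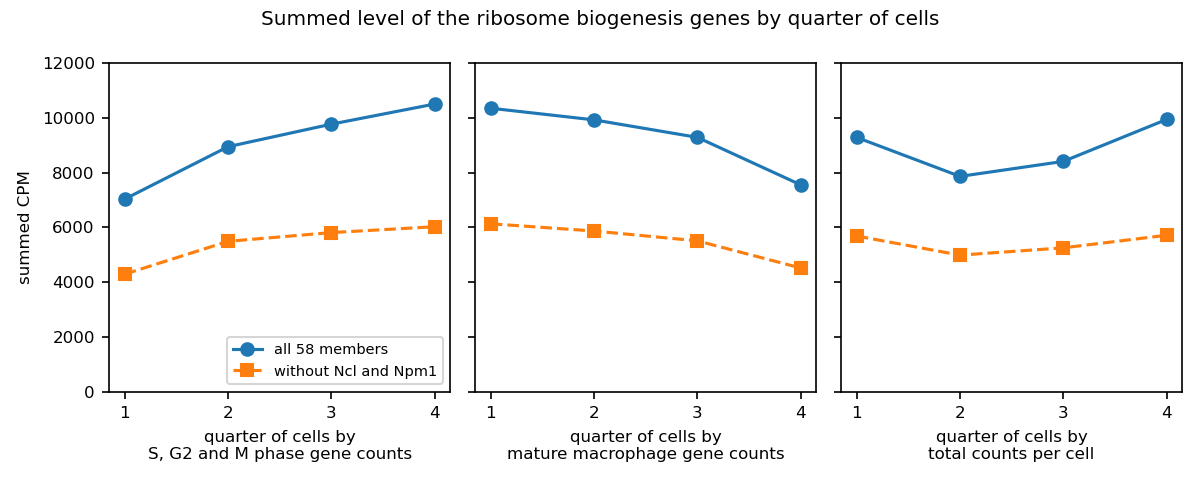
Summed CPM of the members in 4 equal groups of cells by counts of S, G2 and M phase genes (left), of mature macrophage genes (middle) and by total counts (right), with and without Ncl and Npm1. The sum goes up from group 1 to 4 on the left (7034 to 10501 CPM), down in the middle (10348 to 7554 CPM), and in no single direction on the right.

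The call was spread over the roles. In the small-subunit group 13 of 19 members were called, in the exosome 6 of 9, in the 60S group 4 of 9, among the nucleolar factors 3 of 4 and among polymerase I subunits 1 of 5. Rrp1b, a nucleolar protein related to Rrp1, was at 50.7 CPM (48.8 to 52.7) in the top group and 21.3 CPM (19.7 to 22.9) in the bottom group, a log2 ratio of 1.21. Nop58 was at 290 against 135 CPM (1.10). Wdr43 was at 144 against 66.8 CPM (1.10), Dkc1 at 152 against 71.3 CPM (1.08) and the exosome ring subunit Exosc8 at 99.5 against 46.7 CPM (1.08).

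Other members lay close to 0. Nop53 was at 202 against 217 CPM (-0.10) and Polr1d at 263 against 266 CPM (-0.01). Polr1c was at 58.9 against 56.6 CPM (0.06), Rrp7a, a 40S factor, at 53.0 against 49.8 CPM (0.09), and Exosc4 at 79.2 against 73.5 CPM (0.11). The contrast lay within complexes too. Nop58 and Nop56 (0.93) were called higher, but their partner Fbl was at 353 against 289 CPM (0.29), and Dkc1 and Gar1 (0.66) were called, but Nop10 (0.24) and Nhp2 (0.22) were not. Polr1b, at 0.74, was the subunit of polymerase I that was called.

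Several values moved with these groups. Median depth was 33533 counts in the top and 19937 in the bottom group, and Malat1, a nuclear RNA, was at 402 against 33.6 CPM. Ribosomal protein genes held 30.5% and 33.7% of counts. Mature macrophage genes summed to 3809 CPM in the top and 6239 CPM in the bottom group, and the 10 macrophage markers, of which 7 are in both lists, to 10973 and 15558 CPM. Cluster 2, described below, gave 7.38% of the top and 49.1% of the bottom group. Cluster 4 gave 36.1% and 0.614%, and cluster 6 gave 23.4% and 0.154%, both described below. The part of maturity in the members' difference was not tested. Among cells of 10000 to 40000 counts, where the median depths were 23498 and 21278, 38 members were called higher, against 22.6% of all genes. Without the Malat1-high clusters 6 and 8, described below, 33 were called, against 15.4%. With the G2 and M phase list alone 26 were called (21.1% of all genes), but with the S phase list alone 9 (4.9%), and with 10 CPM added in place of 1 CPM 20 (12.2%). Where the limits fall was partly arbitrary, since 238 cells had exactly 16 counts and 258 exactly 7. Of the 46 members at 10 CPM with a promoter, the 9 with CACGTG had a median ratio of 0.77 (0.09 to 1.10) and the 37 without it 0.64 (-0.01 to 1.21), so the first range lay within the second.

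The opposite order was seen with genes of mature macrophages. Cells were ranked by 14 such genes, which include Apoe, in the same thinned cells. All 57 members had a ratio below 0 between the top and the bottom 25%, against 53.4% of all genes. Few passed the fold: 7 members were called lower (12.3%), against 2.3% of all genes, and none higher, against 8.2%. The median log2 ratio was -0.43, against -0.02 over all genes. The summed level fell from 10348 CPM in the bottom group through 9924 and 9286 to 7554 CPM. Of the other biogenesis list, 86 of 89 lay below 0, and 3 were called lower.

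The lowest ratios belonged to members of several complexes. Rrp1b was at 27.4 against 45.2 CPM (-0.70), Exosc5 at 174 against 279 CPM (-0.68) and Dkc1 at 89.7 against 142 CPM (-0.66). Nolc1 was at 176 against 277 CPM (-0.65) and Gar1 at 96.2 against 150 CPM (-0.63). The other calls were Nop10 (-0.61) and Polr1e (-0.60). Of the 4 box H/ACA members 3 were thus called, and of the 19 small-subunit members 0. The medians of these roles were -0.62 and -0.35. The small-subunit factors Rrp12 (-0.57) and Rrp9 (-0.55) missed the fold narrowly. The 5 members nearest to 0 were all small-subunit factors: Rrp36 (-0.03), Utp3 (-0.09), Utp23 (-0.10), Rrp7a (-0.13) and Utp11 (-0.14). The 60S factor Rrp1 (-0.14) came next.

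To hold cell cycle genes more alike, the comparison was repeated within each of the 4 groups by cell cycle genes. There 54, 54, 51 and 52 of the 57 members lay below 0, against 46.0%, 45.7%, 48.7% and 40.4% of all genes. Other markers moved with the undivided groups. Genes of neutrophil and granulocyte precursors summed to 39.9 CPM in the top and 194 CPM in the bottom group, and monocyte genes to 98.2 and 138 CPM. Cluster 3, led by Ly6c2 and Prtn3, gave 9.76% of the top and 36.6% of the bottom group, and cluster 2 53.0% and 6.99%. Median depths were 25882 and 22433 counts. The part of these in the members' difference was not tested.

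**Figure D3:**
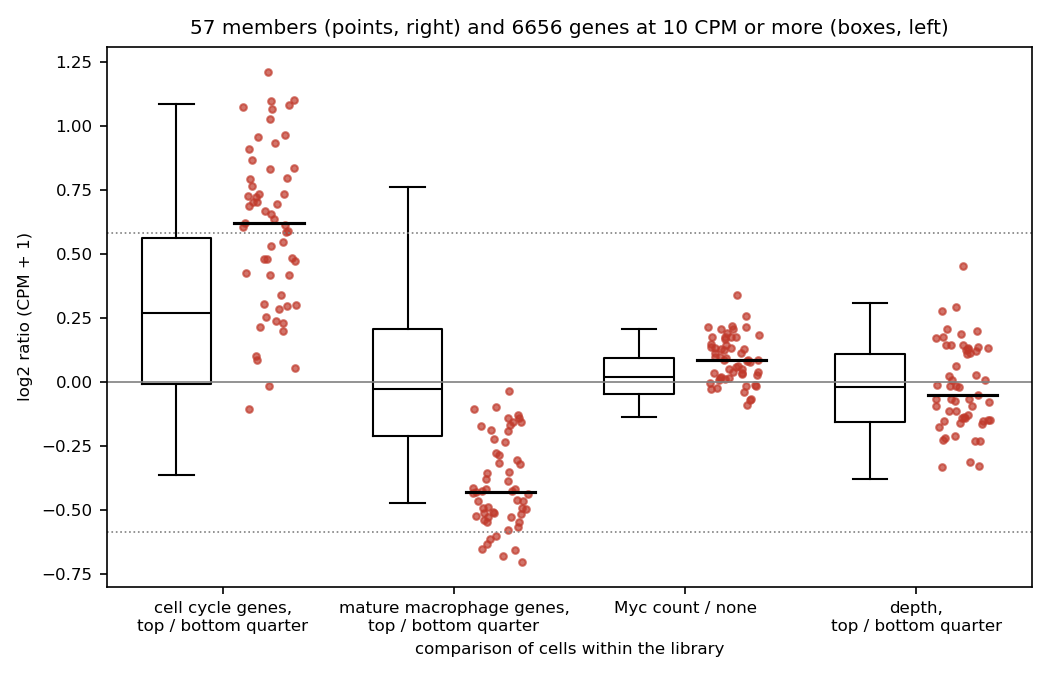
Log2 ratios in 4 comparisons of cells within the library, for all 6656 genes at 10 CPM or more (boxes: quartiles and median, whiskers: 5th to 95th percentile) and for the 57 members (points, bar: median). Dotted lines mark 1.5-fold; the members' medians are 0.62, -0.43, 0.09 and -0.05 from left to right.

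Myc itself was at 40.2 CPM, and at 5000 counts 16.0% of cells had a Myc count. Counts per gene do not separate the Myc used for induction from the cell's own. The 833 cells with a Myc count were compared with the 4374 cells without. No member reached 1.5-fold in either direction, against 0.015% of all genes higher and 0.03% lower. Of the 57 members, 47 lay above 0, against 58.2% of all genes, and the median was 0.09, against 0.02. The largest ratios were those of Rrp1b, at 47.0 against 36.9 CPM (0.34), Dkc1, at 141 against 117 CPM (0.26), Nolc1, at 264 against 227 CPM (0.22), Polr1b (0.22) and Wdr43 (0.22). The lowest were Exosc4 (-0.09), Polr1d (-0.07), Exosc3 (-0.06), Mrto4 (-0.04) and Utp11 (-0.03). Within the 4 groups by cell cycle genes 39, 40, 42 and 38 members lay above 0, against 49.1%, 56.7%, 55.3% and 47.8% of all genes. A cell without a Myc count at this depth may still express Myc, so the groups are mixed.

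The members were also compared by depth, in groups that mix the clusters described below. Between the deepest and the shallowest 25% of all kept cells (median 50390 and 2284 counts), 24 of 57 members lay above 0, against 46.3% of all genes, and the median was -0.05. No member was called, against 0.24% of all genes higher and 0.947% lower. Ddx18 was highest at 0.46 and Rcl1 lowest at -0.33. The sums over the 4 depth groups were 9282, 7860, 8407 and 9938 CPM from shallow to deep.

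Cells were also grouped into 8 clusters, numbered by size, from genes that did not include the members, the other biogenesis list or ribosomal protein genes. Genes that vary with the members stayed in, so these differences are a description. Clusters are given by number and leading genes. The members' sum ran from 4688 CPM in cluster 8 to 14089 CPM in cluster 7. Among the 6 larger clusters it ran from 6530 to 10678 CPM.

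Cluster 2 (1532 cells, led by Ms4a7 and Folr2, the highest in mature macrophage genes at 6576 CPM) was low in nearly every member. Of 57 members 55 lay below 0, against 57.1% of all genes, although only Rrp1b (-0.63) and Polr1b (-0.62) were called lower, against 4.69%. The median was -0.28, against -0.05 over all genes. Exosc5 was at 177 against 255 CPM (-0.52), whereas Rrp36 (0.04), Polr1d (0.01) and Nop53 (-0.02) were near 0.

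Clusters 3 and 4 lay on the other side. Cluster 3 (1374 cells, led by Ly6c2 and Prtn3) had 44 members above 0, against 40% of all genes, and a median of 0.17, against -0.06. No member was called higher, against 0.826% of all genes. Exosc5 was its highest member, at 302 against 218 CPM (0.47), followed by Bop1 (0.45) and Polr1b (0.45). Cluster 4 (879 cells, led by histone genes such as Hist1h1b) had 41 members above 0, against 52.9%, and none called higher, against 2.15%. There Nop58, at 303 against 213 CPM (0.51), and Dkc1 (0.50) led. Cell cycle genes were high in cluster 4, with S phase genes at 1604 CPM in sum and G2 and M phase genes at 1924 CPM.

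Clusters 1 and 5 were low in members and in most other genes. In cluster 1 (1630 cells, median depth 5424 counts) 10 members were called lower (17.5%), below the 24.6% of all genes, and the median of -0.19 was near that of all genes, -0.24. In cluster 5 (526 cells, led by Hist1h4h) 21 were called lower (36.8%), against 41.0%, with medians of -0.46 and -0.47. These shares are not results about the members. Ribosomal protein genes held 37.9% and 39.7% of counts in these clusters, against 32.2% over the library. Some members lay alike in both clusters: Dkc1 (-1.08 and -1.18) and Nop56 (-0.90 and -1.18) were low, and Exosc4 (0.41 and 0.40) and Nhp2 (0.37 and 0.33) were above 0. Others did not, as 20 members lay above 0 in cluster 1 and 8 in cluster 5. Of the 5 polymerase I subunits, 4 lay above 0 in cluster 1 and 0 in cluster 5. In cluster 1 the count of calls was 5 with 10 CPM added (11.2% of all genes) and 1 with clusters from all variable genes (17.4%). It was 3 with the mean of single-cell CPM (13.8%), where the median was 0.00280. In cluster 5 it was 13, against 26.3% of all genes, with ribosomal protein, mitochondrial, Gm42418 and AY036118 counts left out of the total.

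**Figure D4:**
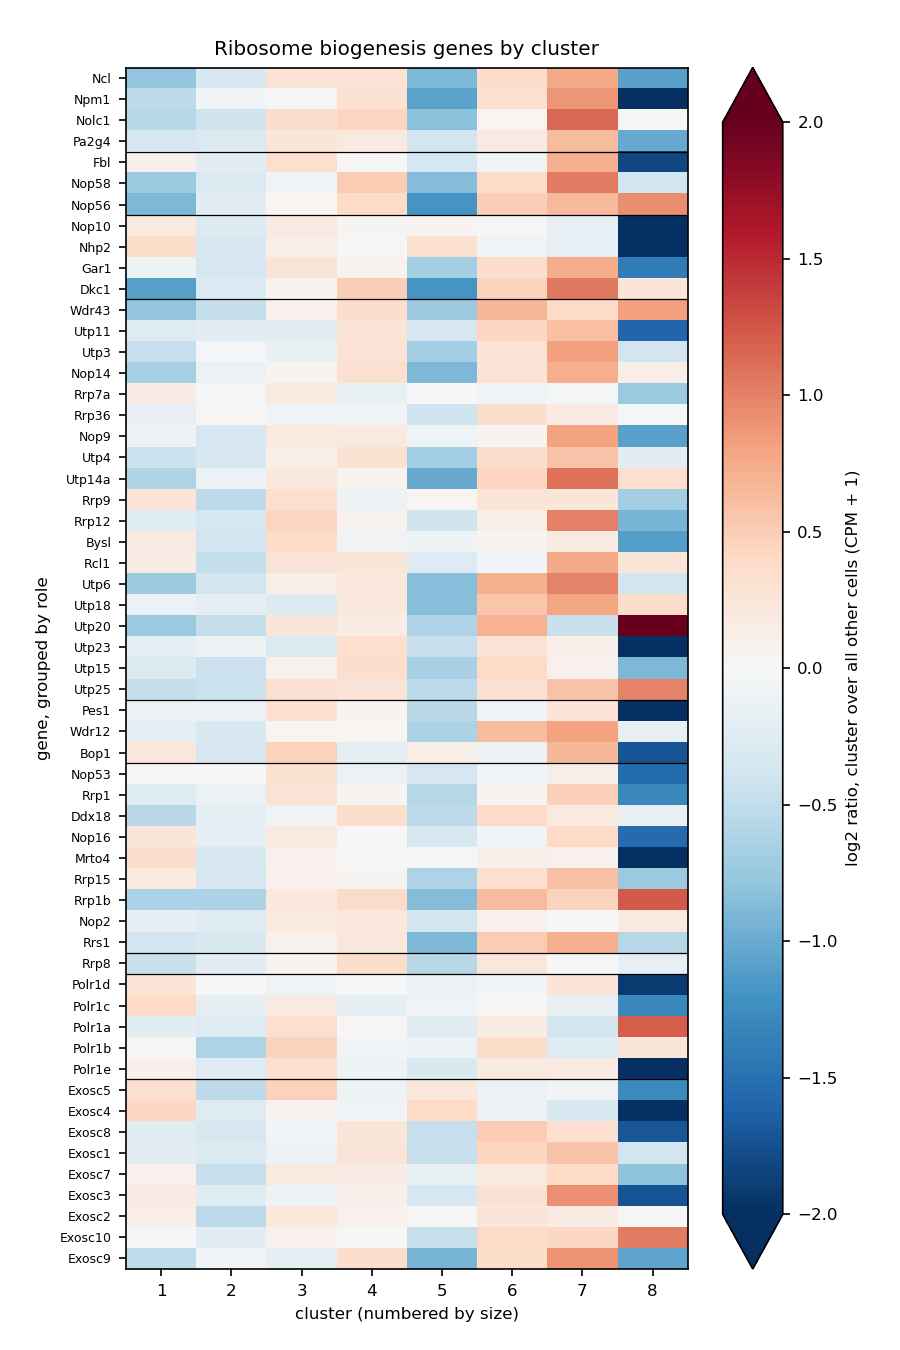
Log2 ratio of each of the 57 members at 10 CPM or more (rows, grouped by role, horizontal lines part the roles) in each of the 8 clusters (columns) against all other cells, from blue (lower) to red (higher), with values beyond 2 in either direction at the ends of the scale. Cluster 2 is blue in nearly every row, cluster 7 red in most, and cluster 8 is mixed, with Utp20 at 2.29 and Nop10 at -3.13.

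Cluster 7 had the highest member level. Its 223 cells were shallow (median 2230 counts), were led by Rad17 and Lrif1, and had 0.062% mitochondrial counts. Of the members 23 were called higher (40.4%), against 21.5% of all genes. The median was 0.44, against 0.15. Nolc1 was at 517 against 232 CPM (1.15), Utp14a, which is needed to release the U3 snoRNA, at 80.4 against 37.4 CPM (1.09), and Dkc1 at 252 against 120 CPM (1.06). Nop58 (1.04) and Rrp12 (1.01) followed. The 4 nucleolar factors and the 3 box C/D members were all called. Of the 5 polymerase I subunits 0 were called, and Polr1a was at 20.8 (11.6 to 34.3) against 27.0 CPM (-0.36). Utp20 had the lowest ratio, at 16.6 (8.60 to 29.1) against 23.1 CPM (-0.45). Both intervals hold the level in other cells. Myc was at 70.7 CPM in cluster 7. Mature macrophage genes were at 1273 CPM in sum, the lowest of the 8 clusters, and the 10 macrophage markers at 4343 CPM, against 12410 over the library. S phase genes summed to 1650 CPM, the highest of the 8, and G2 and M phase genes to 1839 CPM. The part of depth, mitochondrial share and cell cycle genes in these values was not tested.

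Cluster 8 stood apart. It held 80 cells (median 2205 counts) led by Gm26917, Neat1 and Malat1, with Malat1 at 7800 CPM. Ribosomal protein genes held 5.37% of counts, against 32.3% in all other cells. Mitochondrial genes held 5.74%, against 0.817%. Gm42418, a gene model that overlaps a ribosomal RNA unit, held 28.9%, against 5.63%. The members' sum was 4688 CPM, 31 were called lower (54.4%), against 40.9% of all genes, and 7 higher (12.3%), against 34.1%. The median was -0.74, against -0.17. Some of these calls rest on few counts. The 31 include Polr1e, with no count, Utp15 (2 counts, 0.966 to 28.8 against 15.7 CPM) and Bysl (3 counts, 2.47 to 35.0 against 26.8 CPM). The 7 include Utp25 (8 counts, 13.8 to 62.9 against 15.6 CPM). Where an interval holds the level in other cells, as in these 3 genes with counts, the call is uncertain. Myc was at 315 CPM (250 to 393, from 79 counts).

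Members in cluster 8 ranged more widely than in any other cluster. Utp20 was at 116 CPM (77.5 to 166) against 22.9 CPM (2.29). Rrp1b was at 91.8 (58.2 to 138) against 38.5 CPM (1.23), Polr1a at 63.8 (36.5 to 104) against 26.9 CPM (1.22) and Exosc10 at 51.9 (27.6 to 88.7) against 24.7 CPM (1.04). Nop10 was at 59.8 (33.5 to 98.7) against 533 CPM (-3.13) and Npm1 at 319 (253 to 397) against 1565 CPM (-2.29). Pes1 (-2.88), Exosc4 (-2.28) and Nhp2 (-2.14) were low as well. Polr1e had no count in cluster 8. Its interval reached 14.7 CPM, against 14.8 CPM in other cells, so no lower bound on the fold is given. Set at a floor of 3 counts (12 CPM), it would be 1.24-fold lower than in other cells, short of a call. The median over members at that floor was -0.74.

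In this cluster the ratio of a member followed the length of its gene on the genome. Across the 57 members the Spearman correlation of annotated span and ratio was 0.44, and across 6553 genes it was 0.68. The 21 members spanning 20000 bases or more had a median of 0.13, with 11 above 0, and the 36 shorter members a median of -1.09, with 5 above 0. Over all genes the medians were 0.80 for long and -1.22 for short genes. Utp20 spans 80198 bases and Polr1a 75883, whereas Nop10 spans 1344. In cluster 6 (507 cells, led by Malat1 at 1226 CPM) the correlation was 0.31 across members and 0.61 across all genes. G2 and M phase genes summed to 3068 CPM in cluster 6, the highest of any cluster, and S phase genes to 905 CPM. There 5 members were called higher (8.77%), under the 23.3% of all genes, and Utp6 (0.70), Utp20 (0.70), Wdr43 (0.66), Rrp1b (0.63) and Wdr12 (0.61) were those 5. Correlations across genes share libraries and depth and carry no p. Between the top and bottom groups by cell cycle genes the correlation was 0.35 across members and 0.36 across all genes. Long members had a median of 0.73 there, against 0.41 for all long genes, and short members 0.54, against 0.13. Between cells with and without a Myc count the correlation was 0.37 across members and 0.33 across all genes. Long members had a median of 0.14 in that comparison and short members 0.06. In clusters 1 and 5 the correlations were -0.28 and -0.23 across members, and -0.58 and -0.52 across all genes. The part of span in the members' ratios was not tested.

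**Figure D5:**
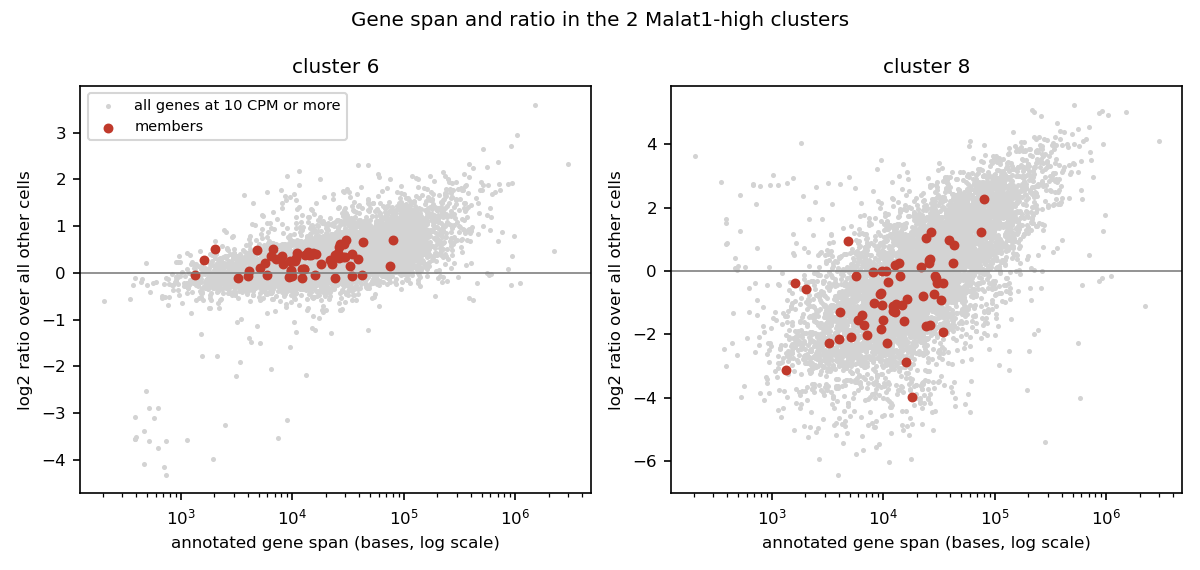
Annotated gene span in bases (log axis) against the log2 ratio of each gene in clusters 6 (left) and 8 (right) over all other cells, for genes at 10 CPM or more (grey) and the members (red). Longer genes lie higher in both, with Spearman correlations across members of 0.31 and 0.44.

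Across the 5207 cells thinned to equal depth, each member was correlated with the rest. The correlation of each member with the mean of the other members had a median of 0.13, against 0.04 for all genes, and 41 members passed 0.1, against 15% of all genes. Ncl (0.57), Npm1 (0.50), Nolc1 (0.37), Nop58 (0.36) and Nop56 (0.33) were highest. The member mean still had a correlation of 0.23 with a cell's original depth. Rrp7a (0.03), Exosc10 (0.05) and Exosc4 (0.05) were lowest. Most members had few counts per cell at this depth, so a low correlation is no finding. The members' median level was 56.7 CPM, against 30.9 CPM for the genes compared, and no set of genes of like level was used. The part of level in the members' higher correlations was not tested. Genes outside the set with the highest correlation were Ptma (0.56), Serbp1 (0.54), Set (0.51), Hsp90ab1 (0.48), Hmgb2 (0.44), Hspd1 (0.42), Hnrnpab (0.41), Eif2s2 (0.40), Rpl4 (0.39) and Hspa8 (0.38). Of these, Eif2s2 encodes a subunit of translation initiation factor eIF2, Rpl4 a large-subunit ribosomal protein, and Hsp90ab1, Hspd1 and Hspa8 chaperones.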

How the data were processed

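Single-cell RNA counts from 1 matrix were analysed. Its deposited entries are raw integer counts for each gene in each barcode, which PISA 0.12 wrote, per the file headers. Cell Ranger and mm10 are named with no role, per the submitters' processing notes. Aligner settings, annotation, strand use and the use of unique molecular tags were not given in the sources used here; if the counts are of reads, the intervals are too narrow. Of 6837 barcodes, 6751 passed a floor of 500 genes and a ceiling of 15% mitochondrial counts. No doublet caller was run, so doublets were left in. Levels are CPM of summed counts with exact Poisson intervals, and exact Clopper-Pearson intervals were computed for cell shares. With 1 sample, no p-value was computed.

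Clusters came from Leiden grouping (scanpy 1.11.5, igraph 0.11.9, resolution 0.5) of 2000 variable genes, 30 principal components and 15 neighbours, with 240 genes left out, the 58 members among them. Ratios were computed across 6656 genes at 10 CPM or more. A simulation changed 200 of these genes 2-fold between 2 pools of the sizes of the cell cycle groups, and 100% of them were called. Its pools had counting error only, with no variation between cells, and its ratios were centred on their median, unlike those of the comparisons. It checks the arithmetic of the call and gives no error rate for the comparisons. Named genes were the 3 highest and the lowest of each role, the 5 highest and 5 lowest ratios in a comparison and the 10 genes with the highest correlation; others were named after their values were seen. Coordinates, coding lengths and spans are from GENCODE M21 (GRCm38), with Utp25 matched by an older symbol. Alternatives changed the pseudocount, level minimum, total, thinning, gene lists and clustering. Members and lists were chosen with earlier results of these data known.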

Additional observations from a re-analysis of the deposited data

How the results depend on the processing

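No paired analysis was possible because 1 matrix without a map from cells to libraries holds no replicates. Of 94 alternative values of the main counts, 87 stayed within 1.5 times. Counts close to all 57 members had little room to rise. Among alternative medians and single-gene ratios, 705 stayed close, 251 moved and 1 reversed. A single-gene ratio could count as reversed only if its main value was 1.5-fold or more. Sign changes of smaller ratios are thus among those that moved or stayed close. In cluster 2, for example, Polr1d went from 0.01 to -0.20 and Rrp36 from 0.04 to -0.21 at resolution 1.0. At resolution 1.0 the median of cluster 2 went from -0.28 to -0.63. There the closest match of cluster 3 shared a fraction of 0.37 of the cells in either. A minimum of 50 CPM left 34 members in place of 57. The members called higher by cell cycle genes numbered 33, but 20 with 10 CPM added (12.2% of all genes) and 9 with the S phase list alone (4.9%). In cluster 5, 21 were called lower, but 13 (26.3% of all genes) without ribosomal protein, mitochondrial, Gm42418 and AY036118 counts in the total. In cluster 1, 10 were called lower (24.6% of all genes), but 5 with 10 CPM added (11.2%), 3 with the mean of single-cell CPM (13.8%) and 1 with clusters from all variable genes (17.4%), and its median of -0.19 became 0.00280 with the mean of single-cell CPM. The cause was not tested. That total moved the median of the other genes by 0.21 in cluster 5, by -0.12 in cluster 6 and by -0.15 in cluster 7. Cells of 10000 to 40000 counts only, and leaving out clusters 6 and 8, were chosen after the data had been seen. In clusters 7 and 8 depth limits single members: with 3 counts as the floor, a member with no count would be set at 4.16 and 12 CPM.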
